A study of Mus musculus with 8 samples.

Results

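The nuclear genes for the subunits of the oxidative phosphorylation machinery were examined across the epithelial cells of the mouse cecum and colon. Members were all gene symbols of the deposited gene table that begin with Nduf followed by a, b, c, s or v and a digit, with Uqcr, with Cox4 to Cox8 or with Atp5, and the symbols Sdha, Sdhb, Sdhc and Sdhd. This gave 88 of 33696 genes, of which 40 carried complex I symbols, 4 complex II, 8 complex III, 19 complex IV and 17 ATP synthase symbols. The rule rests on symbols and sets no threshold on a value. Subunit genes with other symbols are left out, and the pseudogene Cox5b-ps is counted in complex IV, so the sets are not complete lists. Of the members, 3 (Cox8c, Ndufb11b and Ndufb4b) had no transcript in any cell kept.

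Single-cell RNA sequencing was carried out on sorted epithelial cells of both organs, from mice that were untreated, had received antibiotics or were germ-free. Cells were pooled by condition and sorted for EPCAM without CD45, with CD44-positive (proliferative) and CD44-negative (differentiated) cells combined at equal numbers, so the share of each cell class was set in part by the sort. The groups were controls (Ctrl), antibiotic groups named Abx_4D and Abx_14D, and germ-free animals (GF), each in both organs with 4 numbered loaded samples. The sources used here give no strain, sex, age, antibiotic or meaning for 4D and 14D, and do not state that numbered samples came from separate animals, so p-values measure the spread between these samples only.

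Of 24609 barcodes, 15916 held at least 500 transcripts and were kept, 6773 from cecum and 9143 from colon. The 4 cecal groups held 1330 to 2296 cells each. Colon Abx_14D held 3852 cells and colon GF 4215, while colon Ctrl held 50 cells in all and entered no comparison. Colon Abx_4D entered no comparison between groups or organs. Its replicate 1 entered the values by class and the test of dividing against stem cells, and its replicate 2 the levels in dividing cells. Levels are raw transcript counts summed over the cells of a class in a loaded sample, as CPM, the counts scaled to a total of 1000000 for that sum. Mitochondrial-genome transcripts made up a median of over 0.5% per cell in cecal Abx_14D replicates 3 and 4, Abx_4D replicate 2 and GF replicate 4, and in colonic Abx_4D replicate 1.

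Oxidative phosphorylation couples the oxidation of fuel to ATP production on the inner mitochondrial membrane. Complexes I and II pass electrons to ubiquinone, complex III passes them to cytochrome c, complex IV reduces oxygen, and ATP synthase uses the proton gradient built by complexes I, III and IV. Nearly all subunits are encoded in the nucleus, and the rest in mitochondrial DNA. In the large intestine absorptive colonocytes are known as oxidative cells that use butyrate made by bacteria.

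Cell classes were set by gates on summed marker genes, because no cell annotation was used: 2255 absorptive, 2610 stem, 4694 dividing, 1312 goblet, 256 tuft and 71 enteroendocrine cells, with 4718 cells (29.6%) in no gate. The absorptive gate held 19853 CPM of absorptive markers and 388 CPM of stem markers, and the stem gate 5778 CPM of stem markers and 2196 CPM of absorptive markers. The stem marker Notum was under 1 CPM in the stem gate. Of 14 immune markers, 14 were under 1 CPM in absorptive, 12 in stem and 10 in dividing cells (Cd3e, Cd79a and Lyz2 in each), with sums of 2.21, 7.43 and 8.49 CPM. Of 15 stromal and endothelial markers, 12, 11 and 11 were under 1 CPM (Col1a1, Pdgfra and Cdh5 in each), with sums of 14.8, 29.0 and 17.9 CPM.

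Summed over the 88 genes, the subunits had their highest median in absorptive cells in both organs, among classes with at least 20 cells in a loaded sample. In colon, where alone tuft cells reached that number, tuft cells had the lowest, and enteroendocrine cells reached it in no sample. In cecal absorptive cells the sum had a median of 9948 CPM over 14 samples, with a lowest value of 7379 CPM and a highest of 17085 CPM. In cecal stem cells it ran from 4731 to 9648 CPM around a median of 6669 CPM over 15 samples, and in cecal dividing cells from 5606 to 14645 CPM around 8655 CPM over 16 samples. Colonic absorptive cells lay between 6792 and 11595 CPM (median 9519 CPM, 8 samples), colonic stem cells between 4112 and 5627 CPM (median 4457 CPM, 9 samples). The 4 colonic tuft samples were at 4251, 3521, 3583 and 3136 CPM. Ranges of cecal absorptive and stem cells overlapped, while those of colonic absorptive and stem cells did not.

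**Figure D1:**
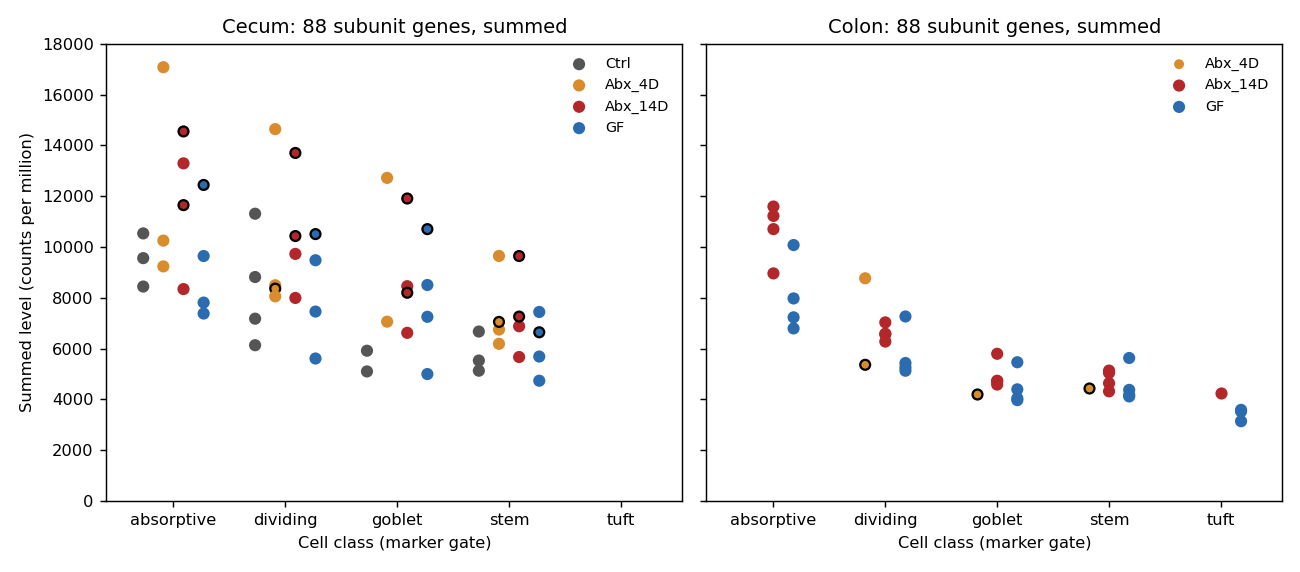
Summed level of the 88 subunit genes in CPM (vertical axis) for each loaded sample, by cell class and organ; each point is a sample with at least 20 cells of the class, coloured by group, and black rims mark samples whose median mitochondrial-genome share exceeded 0.5%. Colonic absorptive samples (6792 to 11595 CPM) all lie above colonic stem samples (4112 to 5627 CPM), and cecal Abx_4D replicate 4 is the highest absorptive sample at 17085 CPM.

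Within a loaded sample the step from stem to absorptive cells was upward in every pair. The absorptive sum was 1.30 to 1.93 times the stem sum in the 13 cecal samples that held both classes (median 1.60) and 1.55 to 2.60 times in the 8 colonic samples (median 1.92). Complex IV, the oxygen-reducing cytochrome c oxidase, had the highest median ratio of the 5 complexes, 1.86 in cecum and 2.30 in colon, and complex I, the NADH dehydrogenase, had the lowest, 1.31 and 1.65. Dividing cells were at 1.11 to 1.70 times the stem level in cecum (15 samples) and 1.20 to 1.45 times in colon (9 samples). Goblet cells were close to stem cells in colon (0.908 to 1.15 times, above 1 in 3 of 9 samples) and above them in 10 of 11 cecal samples (0.922 to 1.61 times), and colonic tuft cells were below stem cells in 4 of 4 samples (0.763 to 0.845 times). In these tuft samples the immune markers summed to 210 to 597 CPM, against 6.22 to 10.3 CPM in colonic stem samples. In tuft cells of both organs, 10 of the 14 (Cd3e, Cd79a and Lyz2 among them) were under 1 CPM. Ptprc, Cd79b, Cd68 and Itgam were not. The part of these markers in the result was not tested.

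Gene by gene, absorptive cells carried more of most subunit transcripts than stem cells of the same samples in both organs. In cecum 60 of 75 tested members were higher and 0 lower by edgeR's quasi-likelihood test (adjusted p under 0.05, fit blocked by sample), where 26.8% of all 7544 genes tested were higher and 53.4% lower. In colon 75 of 78 were higher and 0 lower, against 29.5% higher and 40% lower among 10069 genes. The members' median log2 fold change was 0.64 in cecum, where that of all genes tested was -0.38, and 0.96 in colon, where it was -0.11. At an unadjusted p under 0.05 the counts of lower members were 1 in cecum and 0 in colon. In cecum limma-voom called 2 members lower and DESeq2 0, and in colon both called 0 lower. With no low-count filter edgeR called 1 member lower in each organ. Some tested members met the low-count filter only with their absorptive samples: 8 in cecum (Atp5l, Atp5mpl, Ndufa8, Ndufa11, Ndufb2, Ndufb3, Ndufb4 and Ndufb11) and 4 in colon (Atp5g2, Cox7a1, Ndufa11 and Ndufs5). Of those that met it in stem samples alone, 55 of 67 were higher in cecum (median 0.68) and 72 of 74 in colon (0.95).

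**Figure D2:**
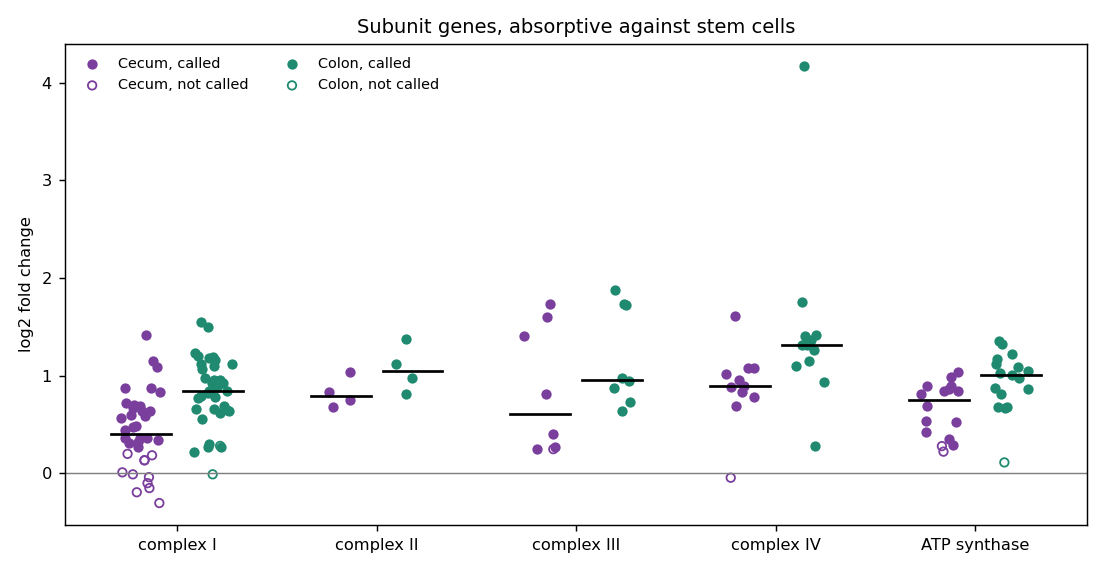
Log2 fold change of each tested subunit gene in absorptive against stem cells (vertical axis), by complex, for cecum (13 samples) and colon (8 samples); filled points passed an adjusted p of 0.05, open points did not, and black lines are medians. Complex I in cecum holds most of the open points, and the point at 4.17 in colon is Cox7a1. Filled points include members, Cox7a1 among them, that met the low-count filter only with absorptive samples.

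The iron-sulfur protein of complex III led the change in cecum. Uqcrfs1, which carries the Rieske cluster that takes electrons from ubiquinol, ran at 116 to 305 CPM in 14 cecal absorptive samples (median 162 CPM) and at 30.7 to 89.1 CPM in 15 stem samples (median 47.6 CPM), with no overlap. Its log2 fold change was 1.74 ± 0.12 (SE, higher in 13 of 13 samples, edgeR adjusted p = 1.7e-12) in cecum and 1.73 ± 0.13 (8 of 8 samples, edgeR adjusted p = 4.0e-09) in colon. Uqcrb, a small subunit of the same complex, rose by 1.60 ± 0.09 in cecum and 1.88 ± 0.09 in colon, and Uqcrq, another small subunit, by 1.40 ± 0.14 and 1.74 ± 0.10. The large core proteins had smaller steps, Uqcrc1 of 0.41 ± 0.10 in cecum and 0.97 ± 0.08 in colon, and Uqcrc2 of 0.25 ± 0.09 and 0.73 ± 0.07. Of the 8 complex III members 7 passed in cecum, all but Uqcr10 (0.25 on the log2 scale), and 8 in colon.

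Of the 19 complex IV members 11 were tested in cecum and 12 in colon, and 10 and 12 rose. The colonic count includes Cox7a1, which met the low-count filter there only with its absorptive samples. Cox5a, one of the subunits that surround the catalytic core, was at 213 to 625 CPM in cecal absorptive samples (median 343 CPM) and 56.9 to 207 CPM in stem samples (median 115 CPM), with no overlap. It rose by 1.61 ± 0.10 on the log2 scale in cecum (edgeR adjusted p = 8.5e-14) and by 1.75 ± 0.10 in colon (edgeR adjusted p = 1.3e-10). Cox4i1, the regulatory subunit IV found in most tissues, rose by 0.78 ± 0.10 and 0.93 ± 0.08, and the zinc-binding Cox5b by 0.96 ± 0.10 and 1.37 ± 0.10. The small subunits Cox6a1 (1.02 and 1.40), Cox6b1 (1.07 and 1.31), Cox6c (0.88 and 1.26), Cox7a2 (1.07 and 1.41), Cox7b (0.83 and 1.10), Cox7c (0.69 and 1.15) and Cox8a (0.89 and 1.31) rose in both organs, cecum first. Cox7a2l, known from supercomplexes of complexes III and IV, stood apart from these: its log2 fold change was -0.05 and not called in cecum, and 0.28 and called in colon.

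Complex I, which oxidises NADH, held most of the members that did not pass in cecum. Of 36 tested members 25 passed there, with a median log2 fold change of 0.40, and 35 of 37 passed in colon, with a median of 0.84. These counts include the members named above that met the low-count filter only with their absorptive samples. The accessory subunits Ndufv3 (1.41 ± 0.11 in cecum, 1.18 ± 0.11 in colon), Ndufa11 (1.15 ± 0.16 and 1.54 ± 0.18) and Ndufc1 (1.09 and 1.20) led it in cecum. Ndufa11 met the low-count filter only with its absorptive samples in both organs, so its values are a description, with no test. Ndufa11 was at 23.8 to 70.6 CPM in cecal absorptive samples and 7.61 to 31.3 CPM in stem samples, so the cecal ranges overlapped. In colon it was at 12.2 to 50.2 CPM against 5.39 to 12.1 CPM. The colonic ranges all but touched, since 12.2 and 12.1 CPM were the absorptive and stem values of GF replicate 4. The core subunits Ndufs1 and Ndufv1, which carry iron-sulfur clusters and the flavin, rose by 0.36 ± 0.08 and 0.34 ± 0.14 in cecum and by 0.66 ± 0.07 and 0.82 ± 0.11 in colon. Ndufb8, a membrane-arm subunit often used as a complex I marker on blots, rose by 0.66 ± 0.13 and 1.11 ± 0.11. Ndufs3, also of the core, had log2 fold changes of 0.01 ± 0.11 in cecum, not called, and 0.30 ± 0.13 in colon (edgeR adjusted p = 0.044).

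Ndufa4 showed no call in either organ. Its symbol puts it in complex I, although the protein is now assigned to complex IV. It was at 29.8 to 84.0 CPM in cecal absorptive samples and 23.9 to 81.7 CPM in stem samples, with log2 fold changes of 0.20 ± 0.11 in cecum and -0.01 ± 0.09 in colon. Other members with negative values in cecum, none of them called, were Ndufb11 (-0.31), Ndufa7 (-0.20), Ndufs4 (-0.15), Ndufs8 (-0.10), Ndufb4 (-0.04) and Ndufb5 (-0.01), beside Cox7a2l. In colon all of these but Ndufb11 (0.28) were called higher: Ndufb4 (0.95), the core iron-sulfur subunit Ndufs8 (0.84), Ndufb5 (0.62), Ndufa7 (0.27) and Ndufs4 (0.22), and Cox7a2l as given above.

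All 4 complex II genes, which link the citrate cycle to the chain as succinate dehydrogenase, rose in both organs. The iron-sulfur subunit Sdhb was at 84.4 to 228 CPM in cecal absorptive samples (median 132 CPM) and 51.2 to 108 CPM in stem samples (median 63.6 CPM). Its log2 fold change was 1.04 ± 0.09 in cecum, higher in 13 of 13 samples, and 1.38 ± 0.10 in colon, higher in 8 of 8. The flavin subunit Sdha rose by 0.68 ± 0.08 and 0.81 ± 0.06, and the membrane anchors Sdhc and Sdhd by 0.75 and 0.83 in cecum and 0.97 and 1.12 in colon.

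ATP synthase genes rose in both organs, the catalytic subunit among them. Atp5b, the catalytic beta subunit, ran at 540.2 to 1240.2 CPM in cecal absorptive samples and 443 to 842 CPM in stem samples, with medians of 805 CPM and 597 CPM and overlapping ranges. Its log2 fold change was 0.42 ± 0.07 in cecum (higher in 12 of 13 samples, edgeR adjusted p = 1.4e-05) and 0.87 ± 0.07 in colon. Atp5a1, the alpha subunit, rose by 0.69 ± 0.07 and 0.98 ± 0.06, and Atp5pb, of the peripheral stalk, by 0.81 ± 0.09 and 1.12 ± 0.10. The small subunits Atp5j2 (1.04 and 1.17) and Atp5mpl (0.98 and 1.00) had the largest steps of the complex in cecum. Atp5mpl met the low-count filter in cecum only with its absorptive samples, so its cecal value is a description. Of the c-ring genes, whose mature proteins are identical, Atp5g1 (0.53 and 1.09) and Atp5g3 (0.89 and 1.35) rose in both organs, and Atp5g2 was not tested in cecum and had 0.11 in colon, not called. In all, 14 of 16 tested ATP synthase genes, Atp5mpl among them, passed in cecum and 16 of 17 in colon. With TMM scaling 73 of 75 members were higher in cecum, with a median of 1.06, and 76 of 78 in colon, with a median of 1.07. TMM scaling shifts the values of all genes, and the share of all genes called with it is not given here.

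Short matches to the binding letters of regulators of respiratory genes were looked for in the promoter windows of the members, since the members moved together. RefSeq windows of 300 bases (250 before and 50 after the start, GRCm38.p6, which is not the build of the counts) matched 70 of the 88 members by symbol, in 75 windows. Letters of NRF1 (GCGCA, then any base, then GCGC; both strands for this and the other motifs) were found in 18 of 75 member windows, 24.0%, and in 4.60% of 32851 windows of all genes. ETS letters (CCGGAAG), as bound by GABP or NRF2, were in 22.7% against 8.86%, YY1 letters (AAGATGGCG) in 9.33% against 1.40%, and the estrogen-related receptor element (TCAAGGTCA, ERR) in 2.67% against 0.423%. The ETS letters end in AAG and the YY1 letters begin with it, so matches to both can overlap. The windows of all genes were not limited to genes expressed in these cells and were not matched for base composition. A match is a description of letters and not of binding. The following 30-base stretches before the start of members from each complex show where such letters lie, in capitals, read along the strand of the gene.
Ndufa11, chr17:56717692-56717721, plus strand, NRF1 letters, 60 to 51 bases before the start: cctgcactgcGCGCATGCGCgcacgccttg
Sdha, chr13:74350276-74350305, minus strand, NRF1 letters, 55 to 46 bases before the start: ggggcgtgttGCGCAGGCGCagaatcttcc
Sdhd, chr9:50603878-50603907, minus strand, ETS letters, 46 to 40 bases before the start: accgtctcctgcCTTCCGGttcacgcttca
Uqcr11, chr10:80406870-80406899, minus strand, ETS letters, 66 to 60 bases before the start: tttctctcctccCCGGAAGtagatgtcaat
Cox6a1, chr5:115349056-115349085, minus strand, NRF1 letters, 117 to 108 bases before the start: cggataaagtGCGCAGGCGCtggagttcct
Cox6a1, chr5:115348959-115348988, minus strand, ETS letters, 16 to 10 bases before the start: cgtccccatttccgCTTCCGGcgcgccggt
Cox6b1, chr7:30626125-30626154, minus strand, ETS letters, 28 to 22 bases before the start: ctcctctcgcagCTTCCGGccagtcggaat
Atp5g3, chr2:73911360-73911389, minus strand, ERR letters, 52 to 44 bases before the start: ttgttacaaagTGACCTTGAgcgtcttccc
The genes shown were picked with their values known. Of the 35 members that held any of these letters, 27 of 33 tested rose in cecal absorptive cells, where 60 of all 75 did, and Atp5e, Atp5l, Ndufb4, Ndufs3, Ndufs4 and Ndufs8 were not called. In colon 34 of 35 rose. Ndufa11, Sdha, Sdhd, Uqcr11, Cox6a1, Cox6b1 and Atp5g3 had cecal log2 fold changes of 1.15, 0.68, 0.83, 0.81, 1.02, 1.07 and 0.89. The value of Ndufa11 is a description, as given above. Atp5h, Uqcrh and Ndufb7 also held such letters and are not shown, with cecal values of 0.28, 0.27 and 0.83.

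Among other genes of energy metabolism, mitochondrial-genome and glycolysis genes mostly rose as well, while assembly factors went both ways. Of 13 mitochondrial-genome protein genes listed, 7 were tested, and 7 rose in cecum (median log2 fold change 1.09) and 6 in colon (0.45). The gene mt-Nd5, for a complex I subunit made in the organelle, rose by 1.83 ± 0.10 in cecum. Of 35 tested assembly factors, which build the complexes and are not part of them, 7 rose and 18 fell in cecum (median -0.34), and 14 rose and 10 fell of 47 in colon (0.20). The copper chaperone Cox17 rose by 1.56 ± 0.14 and the complex I iron-sulfur factor Nubpl fell by 2.51 on the log2 scale in cecum.

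Glycolysis genes rose too: 13 of 14 tested in cecum (median 1.76) and 13 of 15 in colon (1.24), with the lactate dehydrogenase Ldha at 2.85 ± 0.12 in cecum. Of 23 citrate cycle and pyruvate entry genes, 11 rose and 7 fell in cecum and 18 rose and 2 fell in colon. The electron carrier cytochrome c, Cycs, rose by 2.08 ± 0.14 in cecum and 2.04 ± 0.16 in colon. Ribosomal genes went the other way: 79 of 79 cytosolic ribosomal protein genes fell in cecum (median -1.52) and 73 of 80 in colon (-0.57). Of the mitochondrial ribosomal genes tested, 5 of 51 rose and 30 fell in cecum, and 21 of 77 rose and 12 fell in colon.

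Among 22 listed regulators of mitochondrial biogenesis, 18 were tested in cecum, of which 4 rose and 11 fell (median -0.51), and 6 rose and 11 fell of 20 in colon (-0.32). Esrra, the estrogen-related receptor alpha, rose by 0.76 ± 0.11 in cecum and 0.81 ± 0.08 in colon. Its relative Esrrg fell by 5.74 on the log2 scale in cecum, from a mean of 956 CPM in stem cells to 21.0 CPM in absorptive cells. Ppargc1a, the coactivator PGC-1 alpha, rose by 0.91 ± 0.06 in colon.

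**Figure D3:**
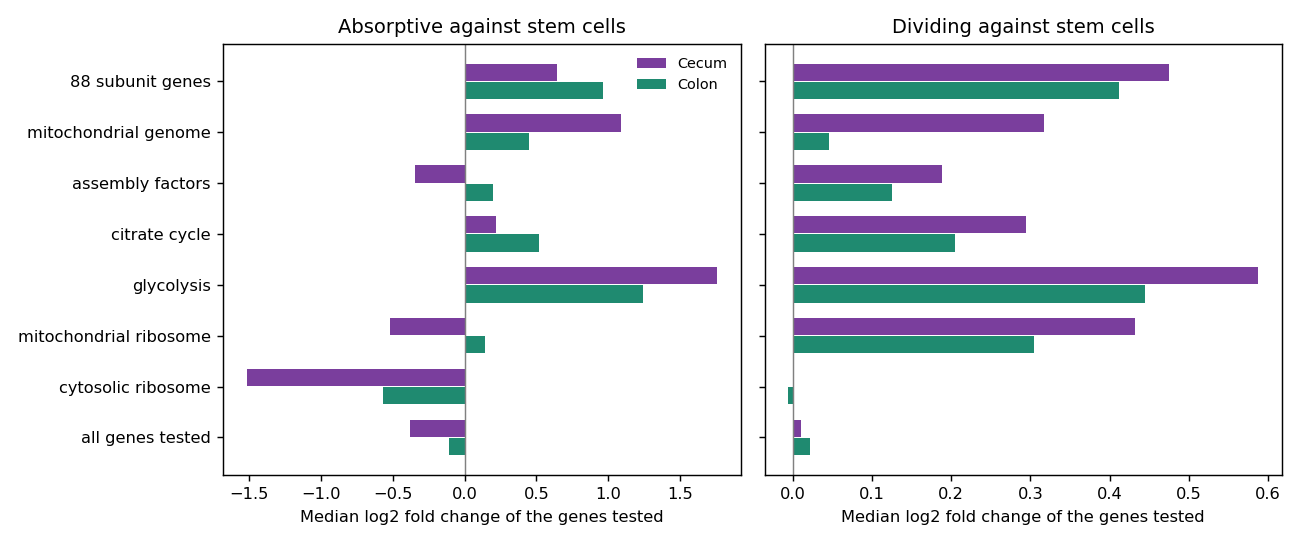
Median log2 fold change (horizontal axis) of the tested genes of each list, in absorptive (left) and dividing (right) cells against stem cells, for cecum and colon. The subunit genes are at 0.64 and 0.96 in absorptive cells, while the cytosolic ribosome is at -1.52 and -0.57. The horizontal scales differ; in dividing cells the subunit genes are at 0.47 and 0.41 and all genes tested at 0.01 and 0.02.

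Gene length went along with these changes. Members are short genes, with a median span of 7.46 kb among the 75 tested in cecum against 33.1 kb among all tested genes with a span in GENCODE M21. Across members, the Spearman rank correlation of span and log2 fold change was -0.32 in cecum (75 genes) and -0.48 in colon (78 genes). Across all tested genes it was -0.21 and -0.19. These are descriptions across genes that share libraries, and genes are not replicates. Among genes spanning under 30 kb, the median log2 fold change in cecum was 0.67 for 72 members and -0.15 for 3496 genes, and in colon 0.97 for 75 members and 0.004 for 5234 genes. The long members Ndufs4, Ndufs1 and Ndufa10 had a median of 0.36 in cecum. The part of span in the members' values was not tested further.

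Dividing cells, gated on S or G2/M phase genes, also carried more subunit transcripts than stem cells, by smaller steps. In cecum 65 of 76 members were higher and 0 lower by edgeR (25.4% of all genes higher, 22.8% lower), and in colon 67 of 77 higher and 0 lower (26.2% and 20.6%). All but Ndufa11 and Ndufs5 in cecum met the low-count filter in stem samples alone. The members' medians were 0.47 and 0.41, where all genes tested lay at 0.01 and 0.02. No member was lower at an unadjusted p under 0.05 or by DESeq2, and limma-voom and TMM scaling each called 1 lower in colon. Uqcrq (0.89 ± 0.12 and 0.82 ± 0.07), Cox5a (0.78 ± 0.07 and 0.67 ± 0.06) and Uqcrfs1 (0.78 ± 0.10 and 0.72 ± 0.08) were near the top here too, and the accessory complex I subunit Ndufa5 reached 0.92 in cecum. Atp5b rose by 0.40 ± 0.04 in cecum, in 15 of 15 samples, and by 0.42 ± 0.04 in colon, in 9 of 9. Ndufa4, which was not called in absorptive cells, rose here by 0.47 ± 0.09 and 0.35 ± 0.07.

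Among the other lists, 44 of 73 mitochondrial ribosomal genes rose in cecum and 43 of 78 in colon, with 0 and 1 lower. Of 80 cytosolic ribosomal genes, 4 rose and 4 fell in cecum and 5 and 5 in colon. Mitochondrial-genome genes rose in 6 of 7 cases in cecum (median 0.32) and 1 of 7 in colon (0.05). Median transcripts per cell were 15552 in dividing, 14489 in absorptive and 12870 in stem cells.

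Most tissue-restricted isoforms were nearly silent. Cox4i2, Cox6a2, Cox8b, Cox7b2 and Ndufa4l2 had 20, 3, 11, 11 and 3 transcripts in all kept cells, out of 119549052 transcripts in cecum and 139240004 in colon, and Cox8c had none, which allows up to 0.025 CPM in cecum and 0.022 CPM in colon by counting error. Per kilobase of exon, Cox4i1 was at 217 CPM per kb in cecum and Cox4i2 at 0.096, and Cox6a1 was at 303 CPM per kb, with Cox6a2 at 0. Cox6b2, the testis form, had 531 transcripts, at 1.02 CPM per kb in cecum and 2.57 in colon, where Cox6b1 was at 207 and 99.9. Of these, 267 lay in dividing cells (3.03 CPM), 102 in stem cells (2.83 CPM) and 37 in goblet cells (1.23 CPM). Tuft cells held 7 (2.63 CPM) and absorptive cells 5 (0.12 CPM). Atp5g3 was the highest of the c-ring genes per kb (66.7 in cecum, 33.7 in colon), above Atp5g1 (18.5 and 10.8) and Atp5g2 (4.77 and 4.68). The pseudogene Cox5b-ps had 539 transcripts, and counts could be split between it and Cox5b.

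Cox7a1, the form of subunit VIIa known from heart, muscle and brown fat, was present in absorptive cells of both organs. In colonic absorptive cells it was at 12.3 to 20.8 CPM (median 14.8 CPM, 8 samples), and in colonic stem cells at 0 to 1.35 CPM (median 0.71 CPM, 9 samples), with no overlap. Means over the 8 samples with both classes were 16.0 and 0.755 CPM. The gene met the low-count filter only with its absorptive samples, so its log2 fold change of 4.17 ± 0.28 is a description, with no test. Absorptive cells of both organs together held 612 of its 1292 transcripts, at 15.0 CPM, and stem cells 28, at 0.776 CPM.

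The cecum had the same order of levels. Cox7a1 was at 6.36 to 22.2 CPM in 14 cecal absorptive samples (median 13.3 CPM) and at 0 in 12 of 15 stem samples, with 7.23 CPM in Abx_4D replicate 4 as the highest. The stem gate held 542 cecal cells in all, so 0 in a single sample does not show absence. Cox7a1 did not pass the low-count filter of the cecal comparison and was not tested there. Goblet cells lay between, at 1.70 to 16.5 CPM in cecum and 1.90 to 7.60 CPM in colon. Dividing cells had medians of 2.90 and 2.10 CPM, with 1 colonic sample of 20 cells at 24.9 CPM. Per kb of exon, Cox7a1 stayed below its common partner Cox7a2 in all kept cells, at 12.6 against 109 CPM per kb in cecum and 6.56 against 63.2 in colon.

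**Figure D4:**
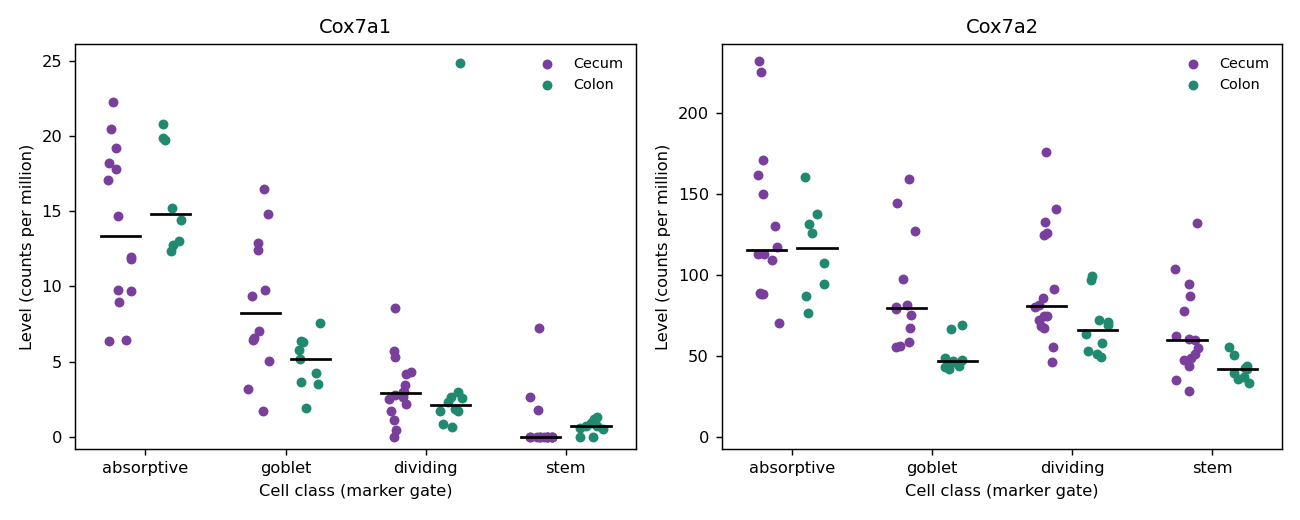
Level of Cox7a1 (left) and Cox7a2 (right) in CPM (vertical axes, on different scales) in each loaded sample, by cell class, for cecum and colon; black lines are medians. Cox7a1 is at 12.3 to 20.8 CPM in colonic absorptive samples and at most 1.35 CPM in colonic stem samples, whereas Cox7a2 is present in every class.

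In the cecum, the antibiotic and germ-free groups were compared with Ctrl within each class, and no subunit passed edgeR's test in the fit without a replicate block. In absorptive cells, edgeR called 0 of 79 members in Abx_4D (3 samples), Abx_14D (4 samples) and GF (4 samples) against the same 3 Ctrl samples, where 3.65%, 7.44% and 12% of all 9612 genes were called. At an unadjusted p under 0.05 there were 10, 11 and 3 members. DESeq2 called 1, 1 and 2 and limma-voom 0, 2 and 0. In stem cells 0 of 75 members were called in each (0.103%, 0.632% and 1.46% of all genes; 12, 9 and 4 members at an unadjusted p under 0.05; 0 by DESeq2 and limma-voom), and in dividing cells 0 of 79 (0.601%, 2.2% and 3.96%; 6, 4 and 2 members; 0 by DESeq2 and limma-voom).

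The values leaned upward with antibiotics all the same. Median log2 fold changes of the members were 0.38 and 0.31 in absorptive cells of Abx_4D and Abx_14D, 0.31 and 0.33 in stem cells and 0.24 and 0.33 in dividing cells, where all genes tested lay between 0.03 and 0.11. In GF they were -0.06, 0.07 and -0.10. The summed level in absorptive cells was 9562, 8442 and 10536 CPM in Ctrl, 13296, 8342, 11650 and 14554 CPM in Abx_14D, 9237, 10252 and 17085 CPM in Abx_4D, and 7810, 9645, 7379 and 12445 CPM in GF. All 3 other groups overlapped Ctrl.

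The lean was smaller, and in some classes absent, without certain samples. Abx_4D replicate 4 was the highest sample of its group in absorptive, dividing and stem cells, and Abx_14D replicate 4 was the highest of its group in the same classes. Without Abx_4D replicate 4 the median in absorptive cells was -0.02 and in dividing cells -0.05. Without the samples of high mitochondrial share the Abx_14D medians were 0.13 in absorptive, 0.12 in stem and 0.01 in dividing cells, and the GF medians -0.26, 0.04 and -0.25. Cytosolic ribosomal transcripts were also high in these samples, at 24996 CPM over all cells of Abx_4D replicate 4 and 21500 CPM in Abx_14D replicate 4, where the other samples of these groups lay between 13221 and 17583 CPM and Ctrl samples between 11690 and 21431 CPM. The part of these differences between samples in the members' values was not tested.

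GF was also set against Abx_14D, groups that serve as well in the comparisons with Ctrl. In cecum 0 members were called by edgeR in absorptive (of 79), stem (of 75) and dividing cells (of 79), where 2.6%, 0.116% and 0.131% of all genes were. All 15, 6 and 6 members at an unadjusted p under 0.05 were lower in GF, DESeq2 called 2, 0 and 0, and limma-voom 1, 0 and 0. Medians were -0.37, -0.31 and -0.42.

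In colon the same contrast gave a few calls, all lower in GF. In absorptive cells 3 of 78 members were called, where 1.09% of all genes were lower, and the median was -0.46 against 0.02 for all genes tested. Ndufa11, an accessory subunit of the complex I membrane arm, was at 20.7, 19.7, 15.6 and 12.2 CPM in the 4 GF samples and 33.2, 27.6, 49.0 and 50.2 CPM in the 4 Abx_14D samples. The groups did not overlap, and the log2 fold change was -1.13 ± 0.25 (edgeR adjusted p = 0.040). The core iron-sulfur subunit Ndufs8 was at 23.3, 21.0, 19.1 and 22.9 CPM against 43.4, 32.3, 47.5 and 36.4 CPM, a log2 fold change of -0.86 ± 0.20 (edgeR adjusted p = 0.048). The Rieske protein gene Uqcrfs1 was at 93.8, 72.7, 65.0 and 85.5 CPM against 131, 109.6, 171 and 139 CPM, a log2 fold change of -0.78 ± 0.17 (edgeR adjusted p = 0.034). Neither of these overlapped between the groups. Summed cytosolic ribosomal transcripts also had a lower median in GF, at 8890 against 12614 CPM in colonic absorptive cells, with overlapping ranges. Their medians were 13130 against 18343 CPM in dividing and 13408 against 17862 CPM in stem cells, with overlap too. Mitochondrial-genome sums in absorptive cells had close medians, 3420 and 3442 CPM. The part of these sums in the members' values was not tested.

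The member calls in colonic GF against Abx_14D were close to the threshold. Leaving out single samples gave 0 to 15 calls in absorptive cells, with 0 calls without any of Abx_14D replicates 1, 3 and 4 or GF replicates 2 and 3, 1 without GF replicate 1, 8 without Abx_14D replicate 2 and 15 without GF replicate 4, whose absorptive sum of 10078 CPM was above the 6792 to 7974 CPM of the other 3. DESeq2 called 10, limma-voom 1, edgeR without the low-count filter 22 and edgeR with gates 1.5 times as strict 1. In dividing cells 1 of 78 members was called (0.656% of all genes were lower): Uqcr11, a small complex III subunit, at 34.9, 34.3, 31.2 and 50.1 CPM in GF and 57.4, 62.1, 58.7 and 73.8 CPM in Abx_14D, with a log2 fold change of -0.75 ± 0.16 (edgeR adjusted p = 0.036). That call was lost when any sample other than GF replicate 4 was left out, and without GF replicate 4 there were 20 calls, while DESeq2 called 2. In stem cells 0 of 77 members were called by edgeR (0.598% of all genes were; 8 members at an unadjusted p under 0.05; 0 by DESeq2 and limma-voom).

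Colon was compared with cecum in the 2 groups that both organs held, Abx_14D and GF. In stem cells of Abx_14D, edgeR called 29 of 77 members lower in colon and 0 higher (6.4% of all 9904 genes were lower), with a median of -0.63 against -0.08 for all genes tested. In stem cells of GF 9 of 77 were lower and 0 higher (3.71% lower), with a median of -0.44 against -0.04. The 29 were 10 complex I, 2 complex II, 2 complex III, 8 complex IV and 7 ATP synthase genes. Organ and sorting pool cannot be told apart here.

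**Figure D5:**
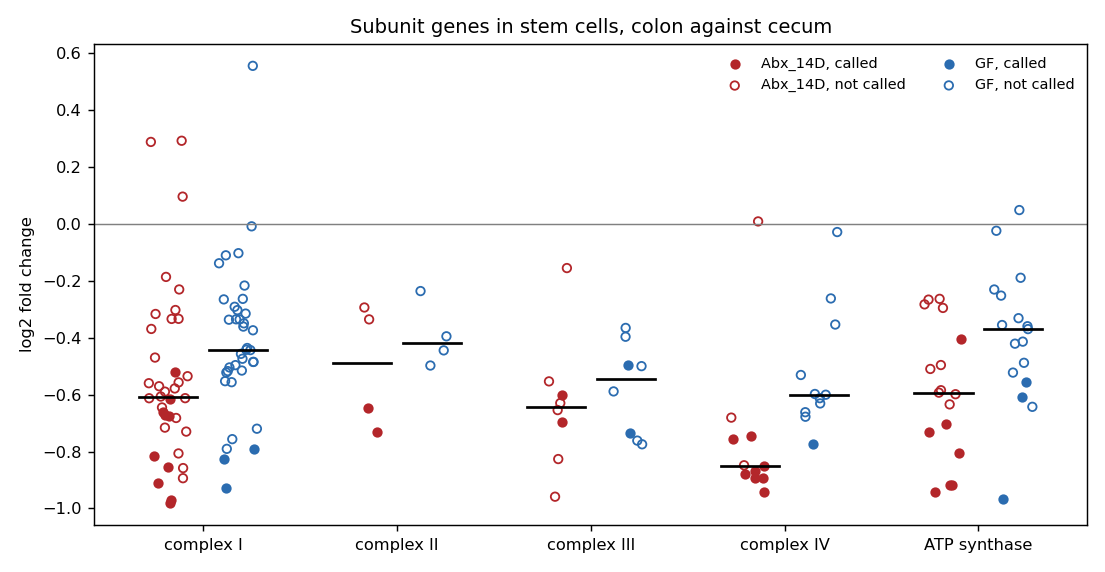
Log2 fold change of each tested subunit gene in stem cells of colon against cecum (vertical axis), by complex, in Abx_14D and GF (4 samples per organ and group); filled points passed an adjusted p of 0.05, open points did not, and black lines are medians. Nearly all points lie below 0, and complex IV has the lowest median in both groups.

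Among them were subunits of complexes I and IV and of ATP synthase. Ndufs6, a zinc-binding complex I subunit, was at 31.8, 23.1, 25.0 and 24.3 CPM in colonic and 48.6, 44.0, 66.0 and 56.5 CPM in cecal stem cells of Abx_14D, without overlap. Its log2 fold change was -0.97 ± 0.20 (edgeR adjusted p = 0.0021). Cox6c, a membrane subunit of complex IV, was at 108, 92.0, 115 and 110.1 CPM against 201, 117, 229 and 247 CPM, a log2 fold change of -0.88 ± 0.22 (edgeR adjusted p = 0.0095). The c-ring gene Atp5g3 was at 53.7, 51.2, 43.5 and 51.5 CPM against 89.1, 57.0, 107 and 143 CPM, a log2 fold change of -0.92 ± 0.24 (edgeR adjusted p = 0.011). In each of these, cecal replicate 2 was the cecal sample nearest to the colonic values.

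Other called genes in Abx_14D stem cells, in order of size, were Ndufa2 (-0.98), Atp5g1 (-0.94), Cox8a (-0.94), Atp5k (-0.92), Ndufb3 (-0.91), Cox6b1 (-0.89), Cox5b (-0.89), Cox6a1 (-0.87) and Ndufc2 (-0.85).

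In GF stem cells the alpha subunit gene Atp5a1 was at 283, 300.4, 259.7 and 318 CPM in colon and 413, 406, 458 and 425 CPM in cecum, a log2 fold change of -0.56 ± 0.12 (edgeR adjusted p = 0.0037) with a clear gap between organs. Also called were Atp5k (-0.97), Ndufs8 (-0.93), Ndufc2 (-0.79), Cox6a1 (-0.77), Uqcrc1 (-0.73), Atp5j (-0.61) and Uqcrc2 (-0.50), and the ranges of Atp5k, Ndufc2 and Cox6a1 overlapped.

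The counts leaned on single samples. In Abx_14D they fell to 2 without the cecal samples of high mitochondrial share (replicates 3 and 4, leaving 2), with a median of -0.39, to 6 without cecal replicate 4 alone, to 12 without colonic replicate 2 or colonic replicate 3, and to 10 with gates 1.5 times as strict. In GF they were 5 without cecal replicate 4, which was the sample of high mitochondrial share, 3 without cecal replicate 2, 4 without any of colonic replicates 1, 2 and 3, 18 without cecal replicate 1, 15 without colonic replicate 4 and 18 with no low-count filter. The median stayed negative, at -0.75 to -0.47 in Abx_14D and -0.55 to -0.32 in GF, when any single sample was left out. Mitochondrial-genome genes were not called in either (0 of 7 by edgeR), with medians of -0.04 and -0.13. Stem-cell cytosolic ribosomal sums had lower medians in colon, 17862 against 20308 CPM in Abx_14D and 13408 against 17903 CPM in GF, with overlap. Mitochondrial ribosomal sums were lower without overlap, with medians of 1903 against 2197 CPM and 1876 against 2095 CPM. Span and log2 fold change had rank correlations of 0.40 and 0.34 across members and 0.20 and 0.23 across all genes. Their part in the members' values was not tested.

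In absorptive cells fewer members were called with library-size scaling. In Abx_14D 3 of 78 members were lower in colon (10.6% of all genes were), with a median of -0.12, and in GF 7 of 78 (10.2%), with a median of -0.25. All genes tested were shifted up by 0.27 and 0.24 in this comparison, so the members lay 0.39 and 0.49 below that shift, and with TMM scaling, under which their medians were -0.39 and -0.49, 25 and 31 members were called. DESeq2 called 24 and 29, edgeR without the low-count filter 5 and 16, and edgeR with the stricter gates 1 and 3. The shares of all genes called in these alternatives are not given here, so their counts cannot be set against them. Without the samples of high mitochondrial share 0 and 2 (1 higher, 1 lower) were called, and the median in Abx_14D was 0.02. Uqcrfs1 was called in both groups, at -0.64 ± 0.18 (edgeR adjusted p = 0.0067) and -0.84 ± 0.19 (edgeR adjusted p = 0.0010). It was at 131, 109.6, 171 and 139 CPM in colon and 218, 153, 224 and 250.1 CPM in cecum in Abx_14D, with overlap, and at 93.8, 72.7, 65.0 and 85.5 CPM against 123, 149.8, 116 and 179 CPM in GF, without. Also called were Ndufv3 (-0.56 and -0.67) in both, Sdhc (-0.49) in Abx_14D, and Ndufa11 (-0.80), Ndufc1 (-0.76), Cox6b1 (-0.65), Cox4i1 (-0.61) and Cox7b (-0.60) in GF.

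In the same absorptive cells other lists took different directions. Mitochondrial-genome genes were lower in colon in 6 of 7 cases in Abx_14D (median -0.75) and 5 of 7 in GF (-0.95), and cytosolic ribosomal genes higher in 66 of 80 (0.80) and 20 of 80 (0.50). Without single samples the members' counts ran from 1 to 8 in Abx_14D (8 without cecal replicate 2, and 1 without cecal replicate 1 or 4 or colonic replicate 1 or 2). In GF they were 12, 3, 13 and 2 without cecal replicates 1, 2, 3 and 4, and 3, 2, 1 and 11 without colonic replicates 1, 2, 3 and 4.

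The rise from stem to absorptive cells was also compared between organs, over Abx_14D and GF (8 samples each). By library-size scaling 33 of 78 members rose more in colon and 0 less, where 37.6% of all genes did, and the members' median difference of 0.40 was close to the 0.38 of all genes tested. With TMM scaling the median of all genes was 0.02, 2 members rose more in colon and 3 less.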

How the data were processed

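The authors deposited a matrix of raw transcript counts per cell and gene with a cell table and a gene table; the counts are whole numbers and were not normalized. They came from a split-pool combinatorial barcoding kit in 8 sublibraries, each mixing all conditions, so groups were taken from the loaded-sample names in the cell table. The gene table names the build GRCm39. The submitters' processing notes list mm39 and Seurat; for aligner, counter and annotation, the sources used here name none. Cells with at least 500 transcripts were kept, and no doublet caller was run; 462 of 15441 well barcodes occurred in more than 1 sublibrary.

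Cells were gated in order on the summed CPM of marker lists with at least 3 markers detected: enteroendocrine from 1500, tuft and goblet from 3000, dividing (S or G2/M genes) from 1000, absorptive from 6000 with stem markers under 2000, and stem from 3000 with absorptive markers under 6000 and cycle genes under 500. The cutoffs were set after the distributions of marker sums and the cells per class had been seen, and before member values were looked at. Of the cells gated, 14.5% of absorptive, 15.3% of stem and 12.5% of dividing cells lay within 25% of the cutoff. The members and lists were chosen with earlier results of these data known, and pseudogenes, Rps6k kinases and like-named genes were removed from the cytosolic ribosome list after the gene table had been read.

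Counts were summed per loaded sample and class (at least 20 cells) and tested with edgeR 4.0.16 in R 4.3.3 (quasi-likelihood, filterByExpr, library-size scaling), with Benjamini-Hochberg adjustment over all genes and a threshold of 0.05. Class comparisons were blocked by loaded sample. Standard errors were taken from the fold change and its F value. Depth per loaded sample was 1821737 to 15414170 transcripts in cecum and 6613124 to 30127065 in colon Abx_14D and GF. The test was tried on simulated counts. Named members were the up to 12 largest called changes in each direction, core subunits of each complex and tissue isoforms; of other lists, the up to 4 largest. Alternatives were TMM scaling, DESeq2 1.42.0, limma-voom (limma 3.58.1), no low-count filter, at least 1000 transcripts per cell, gates 1.5 times as strict, single samples left out, and samples of high mitochondrial share left out. Gene spans were from GENCODE M21 (GRCm38), matched by gene identifier. The result of 1 called member is not reported here.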

Additional observations from a re-analysis of the deposited data

Results flagged for a closer look

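In 6 of 31 groups of 4 samples the summed subunit level had a single sample far from the other 3, where chance gives about 1 in 20 separate groups. These groups are not separate, since all kept cells include each class, and the 6 came from 3 loaded samples. In cecal Abx_4D, replicate 4 was the far sample over all kept cells (14586 CPM) and in dividing cells (14645 CPM). In colonic GF, replicate 4 was the far sample over all kept cells (6826 CPM), in dividing cells (7263 CPM) and in stem cells (5627 CPM). In colonic Abx_14D goblet cells it was replicate 1 (5793 CPM). All 6 were the highest of their groups. The step from stem to absorptive cells differed between organs, by a test of the difference itself, for 33 members, each with the larger step in colon. Of all genes 37.6% had a larger step there, and the medians of the difference were 0.40 for members and 0.38 for all genes; with TMM scaling 2 were larger and 3 smaller.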

How the results depend on the processing

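Of 5846 recomputed values of members called at the outset (members that gained a call are in the counts below), 5409 kept their direction and their side of the threshold, 437 kept the direction and lost the call, and 0 reversed. Counts of members called, without single samples, were 56 to 61 (cecum) and 71 to 75 (colon) for absorptive against stem cells, and 62 to 66 and 63 to 67 for dividing cells. For colon against cecum they were 6 to 38 and 3 to 18 in stem cells of Abx_14D and GF, and 1 to 8 and 1 to 13 in absorptive cells. For colonic GF against Abx_14D they were 0 to 15 in absorptive and 0 to 20 in dividing cells. In cecal absorptive cells they were 0 to 2 for Abx_14D and 0 to 1 for GF against Ctrl, and 0 to 1 for GF against Abx_14D.

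DESeq2 called 1, 1, 2 and 2 members in cecal absorptive cells (Abx_4D, Abx_14D and GF against Ctrl, GF against Abx_14D), 10 and 2 in colonic absorptive and dividing cells, and 24 and 29 between organs in absorptive cells of Abx_14D and GF. TMM scaling called 1 and 1 for GF in cecal absorptive cells (against Ctrl and Abx_14D), 25 and 31 between organs in absorptive cells, and 5 for the difference in step. Limma-voom called 2, 1 and 1 in absorptive cells (cecal Abx_14D, cecal GF against Abx_14D, colonic GF against Abx_14D). With no low-count filter 1, 4 and 3 members were called in cecal absorptive cells (Abx_4D, Abx_14D, GF against Abx_14D), 1, 2 and 7 in cecal dividing cells (same order), 22 and 1 in colonic absorptive and stem cells, and 5, 16 and 18 between organs (absorptive Abx_14D and GF, stem GF). Stricter gates gave 2 and 1 in absorptive cells (cecal Abx_14D, colonic GF against Abx_14D) and 1, 3 and 10 between organs (absorptive Abx_14D and GF, stem Abx_14D). Without samples of high mitochondrial share the counts between organs were 0 and 2 in absorptive and 2 and 5 in stem cells. Shares of all genes called in these alternatives are not given here. The cause was not tested.

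Same-numbered samples did not deviate together in every pair: correlations passed 0.1 in 3 of 18 pairs in cecal absorptive, 3 of 21 in cecal stem and 12 of 24 in cecal dividing cells, and in 0, 1 and 1 of 4 in colon. In cecal dividing cells the median correlation was 0.117 for same-numbered and -0.038 for other pairs, and 9 of 16 samples were closest to one of their own number, a hint from the data and not the design. With the replicate number as a block, 3 members were called for cecal absorptive Abx_14D, 1 for cecal and 1 for colonic GF against Abx_14D in absorptive cells, 2 for cecal dividing Abx_14D, and 6 and 12 between organs in absorptive cells of Abx_14D and GF. Without the block by loaded sample, class comparisons called 55, 70, 57 and 54 members (absorptive in cecum and colon, dividing in cecum and colon).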
